A study of Mus musculus with 8 samples.

Results

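The surface ligands described here were 6 genes whose products on a beta cell meet receptors of T cells, NK cells or phagocytes: Cd274 (PD-L1), Lgals9, Cd47, Icam1, Vcam1 and Pvr. They were taken by gene symbol from a table of 44343 genes, in which all 6 were present, and all 6 passed the filter on low values (a mean of at least 10 normalized counts over the libraries). PD-L1 binds PD-1 on T cells and restrains them, and in mouse models of autoimmune diabetes its blockade speeds the disease. Galectin-9, the product of Lgals9, binds TIM-3 on T cells, and CD47 binds SIRPA on phagocytes and inhibits uptake of the cell. ICAM-1 and VCAM-1 hold leukocytes through the integrins LFA-1 and VLA-4, and PVR (CD155) binds the activating receptor CD226 and the inhibitory receptors TIGIT and CD96. Interferons are known to induce Cd274 and Lgals9 in many cell types, and NF-kappaB signalling is known to induce Icam1 and Vcam1.

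RNA was sequenced from beta cells of 4 KO and 4 Het libraries. The KO mice carried MipCreER, both alleles of Adar floxed and the R26R-EYFP reporter, and the Het mice carried MipCreER, 1 floxed and 1 wild-type Adar allele and the same reporter. In MipCreER an insulin promoter drives a Cre recombinase that tamoxifen switches on, and Adar encodes an enzyme that converts adenosines of double-stranded RNA to inosines. All mice were 1 month old and received 2 doses of 8 mg tamoxifen, and YFP-positive islet cells were sorted 7 days later. The Het mice too carried Cre and a floxed Adar allele and received tamoxifen, and sorting on YFP selects cells that recombined the reporter, not cells that recombined Adar. The study asks what lies behind the islet inflammation that follows Adar loss. How many mice went into a library is not in the labels. The p-values therefore rest on library-to-library spread alone, which may be in part technical.

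Libraries held 5370765 to 15883473 reads in KO and 5925893 to 12819040 in Het. Values are normalized counts, reads divided by the authors' size factor of the library. Under this scaling the general level of a library (the median over well-expressed genes of its log2 distance from the library average) was 0.88 and 0.96 in KO 1 and KO 2 but −0.77 and −0.56 in KO 3 and KO 4, against −0.46 to 0.22 in the Het libraries. The female-specific RNA Xist was at 19.2 in Het 1 and at 2343 or higher in the other libraries. The Y-linked gene Ddx3y was at 1.10 in KO 3, at 0 in KO 4 and at 198 or higher elsewhere, so 5 libraries had both above 100 and are called libraries of both sexes. The insulin gene Ins2 was at 125891 to 835219 in KO and 389199 to 799944 in Het, and 10 of 10 beta-cell markers had a mean of at least 10. Adar itself was at 615 to 4030 in KO and 744 to 1187 in Het (limma adjusted p = 0.910), and a count over all exons does not measure the floxed part. Beside the deposited scaling, values were rescaled by TMM (trimmed mean of M-values), under which the tested genes had a median log2 fold change of −0.16, against 0.05 under the deposited scaling.

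The start regions of the genes that stood apart between the groups are shown because interferon and NF-kappaB signalling act through short elements near gene starts. RefSeq start regions (GRCm38.p6) of 300 bases around the start were matched for 4 of the 6 ligands: Cd274 (chr19:29367188-29367487, plus strand), Lgals9 (chr11:78984875-78985174, minus strand), Icam1 (chr9:21015690-21015989, plus strand) and Cd47. Each runs 5′ to 3′ along the gene's strand and ends 50 bases after the start, in lower case with motif matches in capitals.
Cd274: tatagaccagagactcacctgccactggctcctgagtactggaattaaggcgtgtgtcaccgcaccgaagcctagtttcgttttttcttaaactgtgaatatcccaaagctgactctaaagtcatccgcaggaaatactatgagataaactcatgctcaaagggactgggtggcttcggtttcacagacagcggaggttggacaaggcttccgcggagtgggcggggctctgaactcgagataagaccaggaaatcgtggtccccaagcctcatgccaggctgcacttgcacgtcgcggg
Lgals9: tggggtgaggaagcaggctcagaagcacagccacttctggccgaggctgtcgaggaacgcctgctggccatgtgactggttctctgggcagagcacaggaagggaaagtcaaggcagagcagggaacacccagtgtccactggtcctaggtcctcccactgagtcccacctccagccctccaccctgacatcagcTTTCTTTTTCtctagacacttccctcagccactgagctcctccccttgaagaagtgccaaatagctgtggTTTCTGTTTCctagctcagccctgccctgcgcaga
Icam1: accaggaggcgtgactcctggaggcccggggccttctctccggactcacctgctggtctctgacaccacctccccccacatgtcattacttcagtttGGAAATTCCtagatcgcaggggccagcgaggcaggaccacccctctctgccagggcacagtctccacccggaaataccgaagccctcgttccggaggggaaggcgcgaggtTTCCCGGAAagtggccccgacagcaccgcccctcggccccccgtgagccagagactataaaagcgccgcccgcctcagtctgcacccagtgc
Searched on both strands were an interferon-response form (GAAA, any 2 bases, GAAA), the STAT form TTCNNNGAA and the NF-kappaB form GGAANNTCC, none of which overlapped another in these windows. Lgals9 held 2 matches of the interferon-response form on the reverse strand, TTTCTTTTTC at positions −55 to −46 from the start and TTTCTGTTTC at 16 to 25. Icam1 held 1 match of GGAANNTCC (GGAAATTCC, −153 to −145) and 1 of TTCNNNGAA (TTCCCGGAA, −42 to −34). The windows of Cd274 and Cd47 held none of these letters. Of 32851 start regions of the same length, 3.44% held the interferon-response form, 8.3% held TTCNNNGAA and 4.26% held GGAANNTCC. A match is a run of letters and not a measured binding site, and Vcam1 and Pvr were not in the table of start regions.

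Among the T-cell ligands, Cd274 and Lgals9 were several-fold higher in KO beta cells, while Cd47, Icam1, Vcam1 and Pvr did not pass the test across all genes. The test was limma on log2(value + 1), adjusted by Benjamini-Hochberg over all 21498 genes tested and called at an adjusted p under 0.05. Of the 6 ligands 2 were called higher and 0 lower. Across all tested genes, 0.921% were called higher and 0.0233% lower. Under the deposited scaling, all 4 KO values lay above all 4 Het values for 3 of the 6 ligands (Cd274, Lgals9 and Icam1). This held for 2.19% of all tested genes. For 0 of the 6 they lay below, against 0.893%. With TMM scaling Cd274 and Lgals9 were the 2 ligands called, where 0.637% of genes were called higher and 0.0372% lower. They were also the 2 called by edgeR (0.673% higher and 0.0343% lower) and by DESeq2 (1.25% higher and 0.0178% lower). Some settings moved the background itself. A filter at a mean of 200 with TMM factors called 6.03% of genes higher and 4.24% lower, and Cd274 was the 1 ligand called. With KO 1 and KO 2 as the only KO libraries 47.4% were called higher and 15.4% lower, and with libraries of both sexes only (KO 1, KO 2 and Het 2 to Het 4) 42.3% and 10.2%. The 5 of 6 and 4 of 6 ligands called higher in these subsets stand against those shares.

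**Figure D1:**
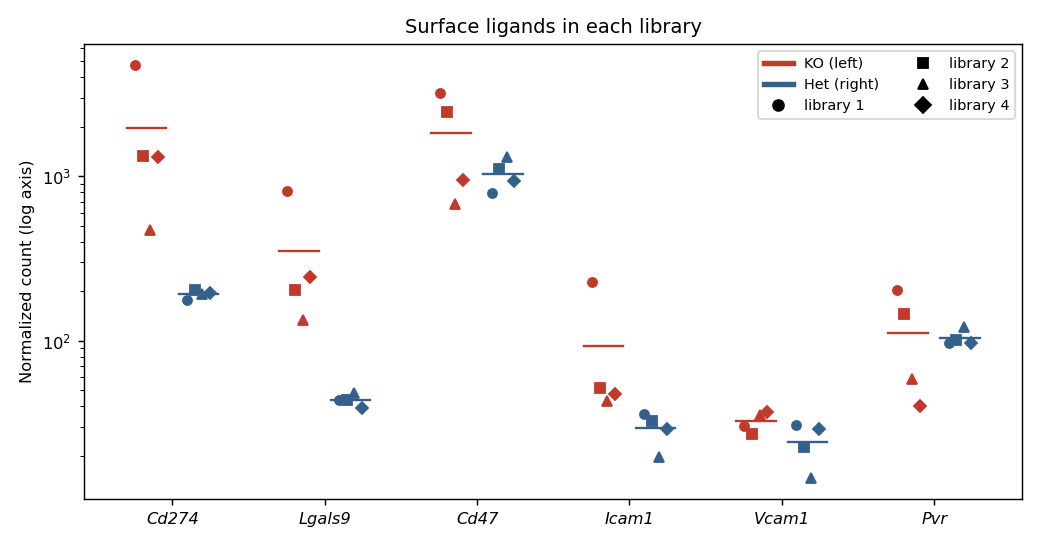
Normalized counts (log axis) of the 6 ligands in the KO libraries (red, left) and the Het libraries (blue, right). Points are libraries, with a symbol for each library number, and horizontal lines are group means. Cd274, Lgals9 and Icam1 have every KO library above every Het library, with KO 1 highest, while the groups overlap for Cd47, Vcam1 and Pvr.

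Cd274 (ENSMUSG00000016496, protein-coding, chromosome 19, 29367455 to 29388095, plus strand, mm10) encodes PD-L1. Its normalized count was 4770, 1331, 472 and 1302 in KO 1 to KO 4 and 177, 203, 193 and 194 in Het 1 to Het 4. Every KO library was above every Het library, the Het libraries lay close together, and the KO libraries spread widely with KO 1 highest and KO 3 lowest. The means were 1969 ± 1910 in KO and 192 ± 10.8 in Het (SD, n = 4 each), a ratio of means of 10.3. On the log2 scale the change was 2.87 ± 0.53 (SE), a 7.31-fold rise with a 95% interval of 3.57 to 15.0 (limma, adjusted p = 1.84e-05). TMM scaling gave 2.65 ± 0.41 (adjusted p = 0.00429), and edgeR and DESeq2 on whole reads also called it (adjusted p = 0.00112 and 1.31e-07). In an exact permutation test over the 8 libraries, two-sided, p was 0.0286, the smallest that 70 arrangements allow. Without KO 1 the change was 2.28 (adjusted p = 0.00400), and with KO 3 and KO 4 as the only KO libraries it was 2.03 (adjusted p = 2.47e-08), where 1.22% of genes were called higher and 7.03% lower. Relative to the Het mean under TMM scaling, Cd274 stood at 4.04, 2.07, 1.54 and 2.95 log2 units in KO 1 to KO 4, so the order of the KO libraries differed from that under the deposited scaling.

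Lgals9 (ENSMUSG00000001123, chromosome 11, 78962974 to 78984946, minus strand) encodes galectin-9, a sugar-binding protein that can be displayed on the cell or released. Libraries held normalized counts of 816, 203, 133 and 245 in KO 1 to KO 4 and 43.6, 43.8, 48.0 and 38.9 in Het 1 to Het 4. The groups did not overlap, and the lowest KO library, KO 3, was still above the highest Het library. The means were 349 ± 314 in KO and 43.6 ± 3.72 in Het (SD, n = 4 each). This was a log2 fold change of 2.62 ± 0.42, a 6.13-fold rise with a 95% interval of 3.44 to 10.9 (limma, adjusted p = 3.29e-07). TMM scaling gave 2.40 ± 0.35 (adjusted p = 0.00171). The exact permutation test gave p = 0.0286, the smallest possible. Without KO 1 the change was 2.09 (adjusted p = 0.000232). Under TMM scaling Lgals9 stood at 3.61, 1.49, 1.84 and 2.66 log2 units above the Het mean in KO 1 to KO 4, with KO 1 and KO 4 highest as for Cd274.

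Icam1 (ENSMUSG00000037405, chromosome 9, 21015985 to 21028817, plus strand) encodes the ligand of the integrin LFA-1 and was the third ligand whose groups did not overlap. Its normalized count was 228, 51.8, 43.0 and 47.6 in KO 1 to KO 4 and 35.9, 32.5, 19.7 and 29.2 in Het 1 to Het 4. KO 1 stood far above the other KO libraries, which lay only a little above the highest Het library. The means were 92.5 ± 90.2 in KO and 29.3 ± 6.96 in Het (SD, n = 4 each), and the values rested on 23 to 254 reads. The log2 fold change was 1.27 ± 0.40, a 2.41-fold difference with a 95% interval of 1.40 to 4.13, and did not pass the test over all genes (limma, unadjusted p = 0.00144, adjusted p = 0.116). It passed without KO 2, KO 3 or KO 4 (adjusted p = 0.0414, 0.0131 and 0.0304), and without KO 1 the change was 0.71 (adjusted p = 1.00). The exact permutation test gave p = 0.0286 under the deposited scaling and p = 0.0857 with TMM scaling, where the log2 values relative to the Het mean were 2.36, 0.13, 0.81 and 0.90 in KO 1 to KO 4 and Het 1, at 0.37, lay above KO 2. An antisense gene, Gm47079, overlaps Icam1 and had a mean of 16.1, and the strand setting of the counting is not stated.

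Vcam1 (ENSMUSG00000027962, chromosome 3, 116109949 to 116129688, minus strand), which encodes the ligand of the integrin VLA-4, was low in both groups. It was at 30.5, 27.2, 35.3 and 36.9 in KO 1 to KO 4 and 30.7, 22.5, 14.6 and 29.2 in Het 1 to Het 4, resting on 17 to 62 reads. The groups overlapped, with Het 1 above KO 1 and KO 2. On the log2 scale the difference was 0.45 ± 0.41 (limma, adjusted p = 0.923), with a 95% interval of −0.35 to 1.25, so a 2.38-fold rise and a fall to 0.783-fold both lay inside it. The 2 integrin ligands thus had values of 92.5 ± 90.2 and 32.5 ± 4.46 in KO libraries, and 29.3 ± 6.96 and 24.2 ± 7.37 in Het libraries (Icam1 first, SD, n = 4 each).

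Cd47 (ENSMUSG00000055447, chromosome 16, 49800533 to 49915010, plus strand), which encodes the ligand of SIRPA, was abundant in both groups. Its normalized count was 3227, 2449, 677 and 950 in KO 1 to KO 4 and 787, 1108, 1306 and 931 in Het 1 to Het 4. KO 1 and KO 2 were above every Het library, KO 3 was below every one and KO 4 lay among them. The log2 fold change was 0.57 ± 0.58 (limma, adjusted p = 0.938), with a 95% interval of −0.57 to 1.70, and 0.35 ± 0.31 with TMM scaling (adjusted p = 0.733), with an interval of −0.31 to 1.00. With KO 1 and KO 2 as the only KO libraries it was 1.47 and passed (adjusted p = 1.48e-05), in a comparison where 47.4% of all genes were called higher. With KO 3 and KO 4 only it was −0.34 (adjusted p = 0.603). The direction of Cd47 thus went with the general level of the library, and under TMM scaling its KO values were 1.08, 0.55, −0.34 and 0.10 log2 units from the Het mean.

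Pvr (ENSMUSG00000040511, chromosome 7, 19903578 to 19921160, minus strand), which encodes CD155, was the 1 ligand with a negative log2 fold change, and this change did not pass the test. Counts were 203, 145, 58.5 and 39.9 in KO 1 to KO 4 and 97.4, 101, 122 and 96.4 in Het 1 to Het 4. KO 1 and KO 2 were above every Het library and KO 3 and KO 4 below every one. On the log2 scale the difference was −0.18 ± 0.42 (limma, adjusted p = 0.972), with a 95% interval of −1.003 to 0.64, and −0.40 ± 0.27 with TMM scaling (adjusted p = 0.698). It was 0.72 with KO 1 and KO 2 only (adjusted p = 0.0207), where 47.4% of all genes were called higher. With KO 3 and KO 4 only it was −1.09 (adjusted p = 0.00770), where 7.03% were called lower. Its sign thus turned with the libraries used. It was also positive without KO 3 (0.03) and without KO 4 (0.21) and with DESeq2 (0.10), with adjusted p = 0.971, 0.831 and 0.952.

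**Figure D2:**
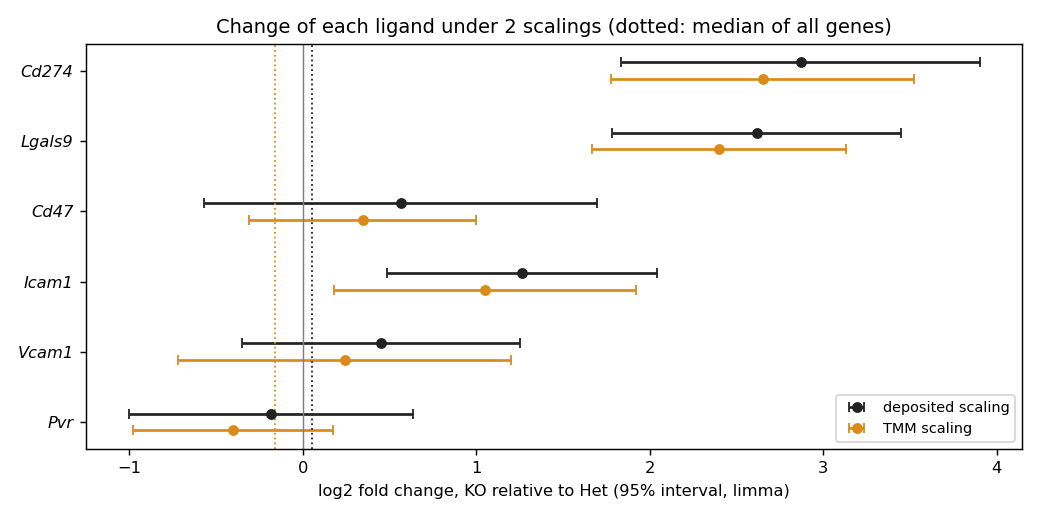
The log2 fold change of each ligand, KO relative to Het, with its 95% interval from limma under the deposited scaling (black) and TMM scaling (orange). Dotted lines are the medians of all tested genes, 0.05 and −0.16. The intervals of Cd274 and Lgals9 start at 1.67 or higher under both scalings, those of Icam1 lie above 0, and those of Cd47, Vcam1 and Pvr include 0.

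A ratio of 2 genes within a library does not depend on how libraries are scaled, so each ligand was also set against Cd47, the ligand with the most reads in all (11874 over the 8 libraries). Cd274 stood at 1.48, 0.543, 0.697 and 1.37 times the normalized count of Cd47 in KO 1 to KO 4 and at 0.225, 0.183, 0.148 and 0.209 times in Het 1 to Het 4. Every KO ratio was above every Het ratio. The difference in mean log2 ratio was 2.30 (two-sided exact permutation test, p = 0.0286). For Lgals9 the ratio was 0.253, 0.0830, 0.197 and 0.258 in KO and 0.0554, 0.0395, 0.0367 and 0.0418 in Het, again with no overlap (difference 2.05, exact permutation p = 0.0286). For Pvr it was 0.0631, 0.0592, 0.0863 and 0.0420 in KO and 0.124, 0.0914, 0.0932 and 0.104 in Het, so here every KO ratio was below every Het ratio (difference −0.75, exact permutation p = 0.0286). The ratios of Icam1 and Vcam1 overlapped between the groups (differences 0.70 and −0.12, exact permutation p = 0.229 and 0.857). These 5 ratios share Cd47, the p-values are not adjusted, and 0.0286 is the smallest possible. Cd47 itself had a log2 fold change of 0.57, against a median of 0.05 over all tested genes, and Pvr had −0.18. With TMM scaling Cd47 had 0.35 and Pvr −0.40. A lower ratio to Cd47 therefore does not by itself show which of the 2 genes differed. The share of all genes whose ratio to Cd47 did not overlap between the groups was not computed.

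**Figure D3:**
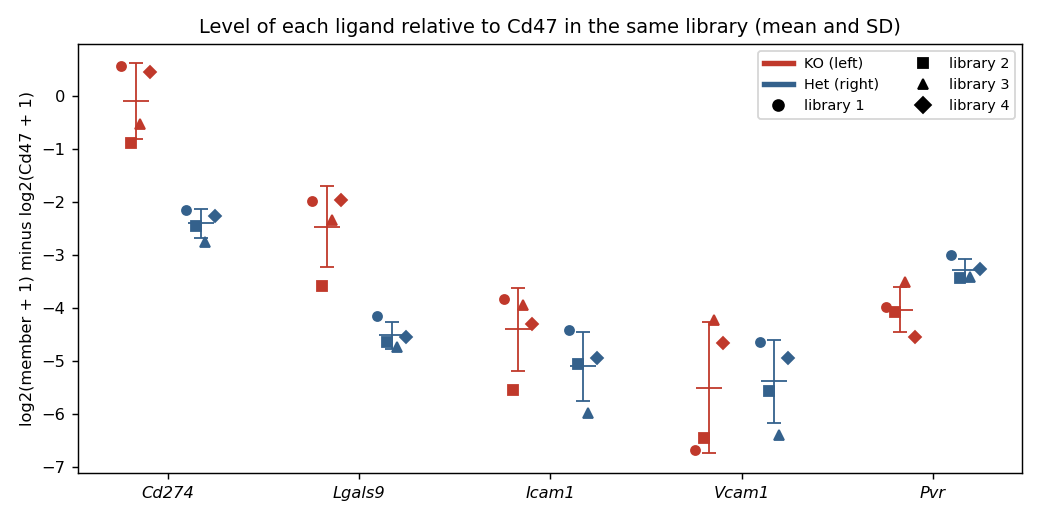
The difference between log2(value + 1) of each ligand and of Cd47 in the same library, in KO (red, left) and Het (blue, right). Points are libraries, and crosses with bars are the mean and SD (n = 4 each). Cd274 and Lgals9 are higher relative to Cd47 in every KO library than in any Het library. Pvr is lower relative to Cd47 in every KO library than in any Het library.

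Levels of different genes were compared per kilobase of annotated exon (GENCODE M21). In KO libraries Cd274 had the highest mean, 544 ± 527 normalized counts per kilobase, before Cd47 at 291 ± 194, Lgals9 at 163 ± 147, Icam1 at 21.2 ± 20.7, Pvr at 18.2 ± 12.5 and Vcam1 at 3.66 ± 0.503 (SD, n = 4). In Het libraries Cd47 came first at 165 ± 35.8, before Cd274 at 52.9 ± 2.97, Lgals9 at 20.4 ± 1.74, Pvr at 17.02 ± 1.94, Icam1 at 6.72 ± 1.60 and Vcam1 at 2.73 ± 0.831. The order of Cd274 and Cd47 thus differed between the groups: Cd274 was above Cd47 per kilobase in 3 of 4 KO libraries and 0 of 4 Het libraries. Icam1 was above Pvr in 3 of 4 KO libraries and 0 of 4 Het libraries. In KO the ranges of neighbours in this order overlapped except for Lgals9 and Icam1 and for Pvr and Vcam1, and in Het only those of Lgals9 (18.2 to 22.5) and Pvr (15.7 to 19.9) overlapped.

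To see how low Vcam1 was, its level was set beside that of 1545 smell and pheromone receptor genes (olfactory and vomeronasal), genes of sensory neurons. Summed, these receptors had 1.06 to 3.47 normalized counts per kilobase in KO libraries and 1.71 to 2.87 in Het libraries. Vcam1 stood at 1.15 to 2.89 times this level in KO and 0.961 to 1.45 times in Het, close to the summed level of these receptors. Icam1 stood at 41.1, 11.2, 2.85 and 3.84 times in KO 1 to KO 4 and at 2.33 to 4.18 times in Het. Cd274 stood at 37.6 to 1038 times in KO and 18.7 to 31.3 times in Het, so PD-L1 transcript was well above this level in heterozygous cells too. The receptors' own level was lowest in KO 1 and KO 2 and highest in KO 3, and the part of this in the low values of Vcam1 and Icam1 was not tested.

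**Figure D4:**
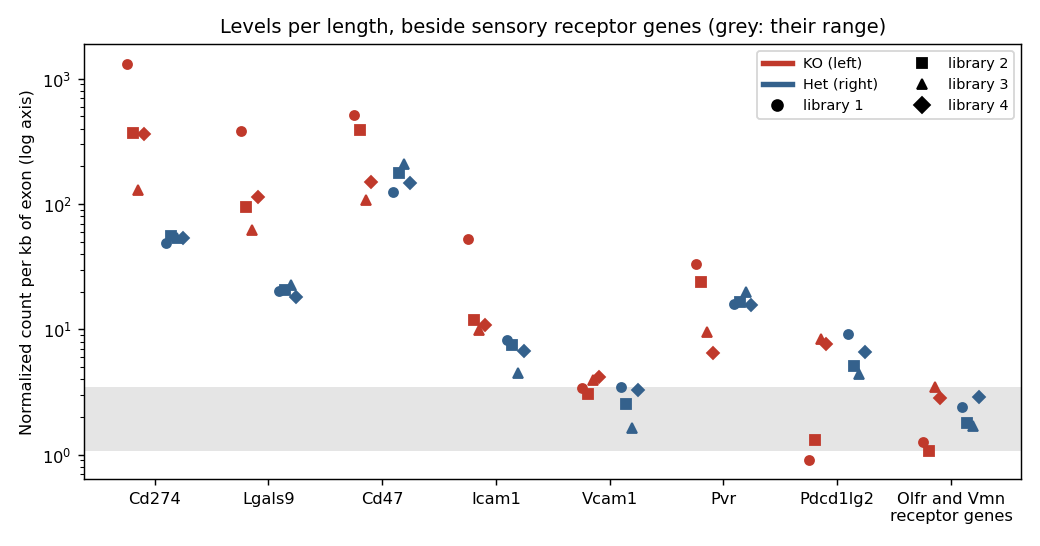
Normalized counts per kilobase of exon (log axis) of the 6 ligands, of Pdcd1lg2 (PD-L2) and of 1545 olfactory and vomeronasal receptor genes summed, in KO (red, left) and Het (blue, right) libraries. The grey band is the range of the receptor genes. Vcam1 lies in or just above the band, Pdcd1lg2 in KO 1 and KO 2 lies at its lower end or below it, and Cd274, Lgals9, Cd47, Icam1 and Pvr lie above it in every library.

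No tested neighbour of Cd274 on chromosome 19 passed the test. Pdcd1lg2, the next protein-coding gene on the same strand, encodes PD-L2, the other ligand of PD-1. It was at 1.79, 2.59, 16.5 and 14.9 in KO 1 to KO 4 and 17.9, 10.001, 8.57 and 12.96 in Het 1 to Het 4 (log2 fold change −0.83 ± 0.56, limma adjusted p = 0.888). Plgrkt, a plasminogen receptor whose gene lies just before Cd274 on the other strand, was at 292 on average in KO and 151 in Het (0.85 ± 0.46, adjusted p = 0.797). Jak2, the kinase of the interferon-gamma receptor, lies 4 protein-coding genes before Cd274 and had 0.47 ± 0.57 (adjusted p = 0.951). Of the 10 protein-coding neighbours, 5 on each side, 7 passed the filter on low values and 0 were called by limma (0 also at an unadjusted p under 0.05, and 0 by edgeR).

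The wider set of ligands, receptors and regulators held 95 genes in 9 lists besides the 6 described, of which 91 were in the table and 76 were tested. Of these, 1 was called higher and 0 lower, while 5 (higher) and 1 (lower) had an unadjusted p under 0.05. Over all tested genes 4.05% were higher and 2.7% lower at that unadjusted p. The 76 genes had a median log2 fold change of −0.04, against 0.05 over all tested genes. Under the deposited scaling, all 4 KO values lay above all 4 Het values for 3 of the 76, H2-T23, Lag3 and Cd40. This held for 2.19% of all tested genes. They lay below for 0 of the 76, against 0.893%. Overlap with TMM scaling was not computed for these genes. Cd40, of the TNF-superfamily list, was at 64.5, 50.5, 30.9 and 28.6 in KO 1 to KO 4. In Het 1 to Het 4 it was at 26.9, 23.8, 18.9 and 27.5 (0.76 ± 0.40, limma adjusted p = 0.783). The called gene was H2-T23, which encodes Qa-1, the non-classical class I molecule that presents to the inhibitory receptor NKG2A. The libraries held 2622, 773, 440 and 681 in KO 1 to KO 4 and 190, 190, 170 and 130 in Het 1 to Het 4, with no overlap. Its log2 fold change was 2.39 ± 0.51 (limma, adjusted p = 0.000561), TMM scaling gave 2.17 (adjusted p = 0.00197), and reads shared with related class I genes may be counted in it.

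The classical costimulatory ligands were at low levels. Cd80 and Cd86, the ligands of CD28 and CTLA-4, averaged 11.1 and 16.8 in KO and 11.9 and 14.3 in Het, and per kilobase stood at 0.954 to 3.33 times the sensory receptor genes in KO and 0.578 to 2.46 times in Het. Of 10 other B7 and butyrophilin-type ligands 0 were called by limma (0 at an unadjusted p under 0.05, median −0.17). Cd276 (B7-H3) was the most abundant of these, at 106 to 511 in KO and 199 to 338 in Het. Of 6 tested nectin-family genes, the relatives of Pvr, 0 were called (0 at an unadjusted p under 0.05, median −0.21), with Nectin1 at −0.41 ± 0.47 (adjusted p = 0.948). Of 8 tested adhesion ligands 0 were called (0 at an unadjusted p under 0.05, median −0.17). The largest log2 fold change among them was that of Jam3, a junctional adhesion molecule, at 0.78 ± 0.41 (adjusted p = 0.764).

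Among other galectins, Lgals8 averaged 880 ± 581 in KO and 438 ± 80.7 in Het (0.76 ± 0.53, limma adjusted p = 0.892), and Lgals1 and Lgals3 averaged under 10 in both groups. Of the 3 galectins tested 0 were called (0 at an unadjusted p under 0.05). Of 4 tested TNF-superfamily genes 0 were called (1 higher at an unadjusted p under 0.05, Tnfsf15, median 0.86). Tnfsf10, which encodes the death ligand TRAIL, was at 1077, 647, 235 and 378 in KO 1 to KO 4 and 222, 251, 280 and 276 in Het 1 to Het 4 (0.96 ± 0.50, adjusted p = 0.768). Ligands of the activating receptor NKG2D had a median of −0.62 over 5 tested genes, with 0 called and 1 lower at an unadjusted p under 0.05. This was Raet1d, at 13.1 ± 8.26 in KO and 27.2 ± 9.49 in Het (−1.13 ± 0.44, adjusted p = 0.417).

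**Figure D5:**
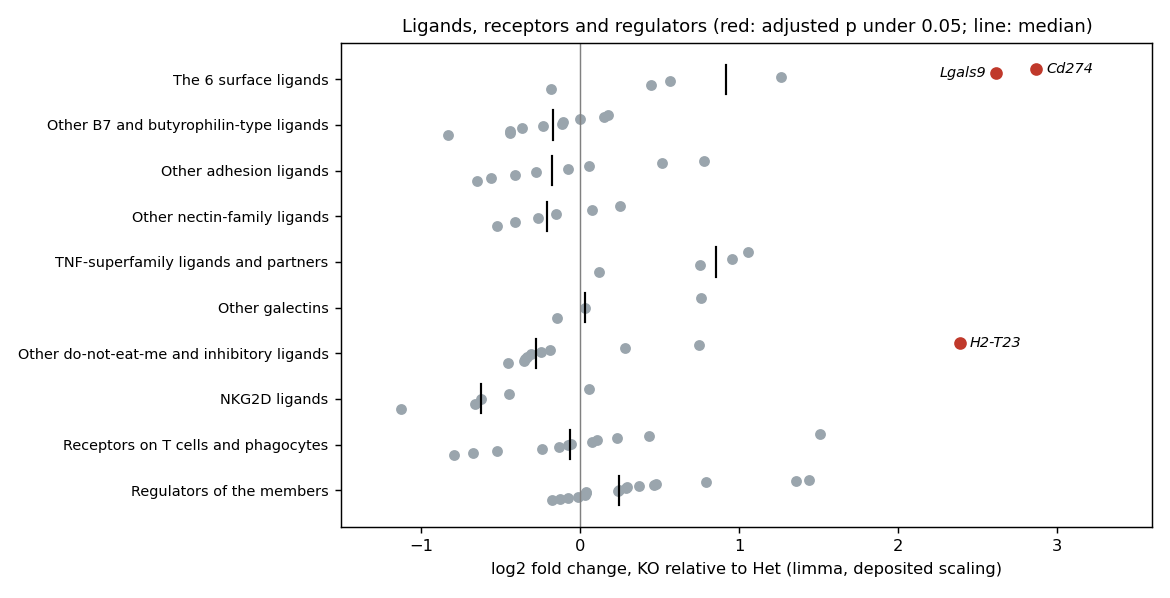
The log2 fold change, KO relative to Het, of the 6 ligands and of the tested genes of 9 lists of related ligands, receptors and regulators (limma, deposited scaling). Each point is a gene, red where the adjusted p is under 0.05, and vertical lines are list medians. Cd274, Lgals9 and H2-T23 are the called genes and lie at 2.39 or higher, apart from the other genes plotted.

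Of 18 tested regulators of the ligands, 0 were called by limma (2 higher at an unadjusted p under 0.05, median 0.24). Stat2, which carries the type I interferon signal to the nucleus, was at 4553, 2099, 610 and 1559 in KO 1 to KO 4 and 596, 824, 753 and 570 in Het 1 to Het 4. KO 1, KO 2 and KO 4 were above every Het library and KO 3 lay among them (1.36 ± 0.57, adjusted p = 0.518), and DESeq2 called it (adjusted p = 0.0464). Irf1, the factor through which interferon-gamma is known to induce Cd274, was at 2401 ± 1630 in KO and 1170 ± 168 in Het (0.79 ± 0.59, adjusted p = 0.903). Ifng, the interferon of T cells and NK cells, was at 1.29 to 4.41 in KO and 0.810 to 6.25 in Het, from 1 to 6 reads a library, and was not tested. Cmtm6, whose product keeps PD-L1 at the surface, averaged 630 ± 381 in KO and 532 ± 99.8 in Het, and Qpctl, the enzyme that modifies CD47 for SIRPA binding, 253 ± 139 in KO and 251 ± 67.6 in Het.

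Of 12 tested receptors of these ligands, 0 were called by limma (1 higher at an unadjusted p under 0.05, median −0.07). Lag3, an inhibitory receptor of T cells that binds class II molecules, had the smallest p, at 83.4, 23.3, 16.5 and 20.8 in KO 1 to KO 4 and 14.1, 10.001, 7.71 and 7.29 in Het 1 to Het 4, with no overlap (1.51 ± 0.44, adjusted p = 0.0673). It passed without KO 2, KO 3 or KO 4 (adjusted p = 0.0309, 0.00936 and 0.0398) and had adjusted p = 1.00 without KO 1. With all libraries its adjusted p was 0.487 by limma with TMM scaling and 0.395 by edgeR. The Lag3 values rested on 8 to 93 reads. Pdcd1, which encodes PD-1, averaged 7.25 in KO and 12.9 in Het, and Havcr2, which encodes TIM-3, 16.6 in KO and 17.8 in Het. Sirpa, the receptor of CD47, was at 478 to 2409 in KO and 659 to 1169 in Het.

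None of the T-cell, myeloid, endothelial or stellate cell markers was called by limma, and 30 of 42 had a mean of at least 10. The 12 T-cell markers summed to 80.2 to 198 normalized counts in KO and 139 to 212 in Het, and the highest mean was 38.4 for Lck. The 12 myeloid markers summed to 201 to 330 in KO and 285 to 359 in Het, the 10 endothelial markers to 179 to 340 in KO and 262 to 375 in Het, and the 8 stellate cell or pericyte markers to 95.8 to 324 in KO and 187 to 276 in Het. Each of these 4 sums was lower in KO 1 than in KO 3 and KO 4. The sensory receptor genes were lower in KO 1 too (1.27 per kilobase, against 3.47 in KO 3 and 2.85 in KO 4). Single markers went the other way: Lck was at 83.4 in KO 1, against 34.2 in KO 3 and 35.1 in KO 4. The endothelial marker Pecam1 was at 61.8 in KO 1, against 45.2 and 45.8. Of these 42 markers 0 were at 0 in all libraries. Among the other marker lists, the duct marker Krt19 was called lower, at 9.86, 28.5, 17.6 and 14.9 in KO 1 to KO 4 and 52.5, 32.5, 201 and 27.5 in Het 1 to Het 4 (−1.69 ± 0.40, limma adjusted p = 0.00488, and 0.163 with TMM scaling). The 6 duct markers summed to 1268 to 4044 in KO and 1225 to 2475 in Het. Most of these sums was Krt7, at 2315 ± 1370 in KO and 1571 ± 452 in Het (0.39 ± 0.60, limma adjusted p = 0.961). The sums thus follow Krt7 and say little of the other duct markers. Gcg, the glucagon gene of alpha cells, averaged 701 ± 217 in KO and 363 ± 167 in Het (1.05 ± 0.52, unadjusted p = 0.0449, adjusted p = 0.722), and the 5 alpha-cell markers summed to 1325 to 2656 in KO and 1206 to 2810 in Het. No B-cell, acinar, delta or PP-cell or beta-cell marker was called. The part of other cells in the results was not tested. In sorted pools, fewer cells of a type and less RNA per cell cannot be told apart.

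By likeness over the 8 libraries (Pearson r of log2 values with TMM scaling, among 10529 genes averaging at least 50, or 10530 for Vcam1), those nearest to Cd274 were Oasl2 (r = 0.998), Ifih1, which encodes the double-stranded RNA sensor MDA5 (0.997), Fam129a (0.997), the heparanase gene Hpse (0.995) and Herc6 (0.995). Nearest to Lgals9 were Cd74, the invariant chain of class II molecules (0.999), Hpse (0.996) and the GTPase gene Igtp (0.996). Nearest to Icam1 were Aaas (0.973), Oas3 (0.965) and Fbxw17 (0.956). Cd47 was nearest to Ppp1r7 (0.996), Rrs1 (0.991) and Traf6 (0.988), Vcam1 to Sfi1 (0.983), Ttc23 (0.943) and Ttf2 (0.937), and Pvr to Dhrs1 (0.977), Dapp1 (0.963) and Rgs4 (0.956). Between the ligands r was 0.986 for Cd274 and Lgals9, 0.838 for Cd274 and Icam1 and −0.22 for Cd274 and Pvr. These values describe 8 libraries that share the scaling and the split into KO and Het, and for Cd274 and Lgals9 that split makes up much of the spread.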

How the data were processed

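RNA was measured in 4 KO and 4 Het libraries of sorted beta cells, grouped and numbered by the sample titles. Per the labels' protocols, libraries were made with Takara's SMARTer Stranded Total RNA-Seq Kit v3 for pico input. Per the submitters' processing notes, the tools were STAR 2.7.3a, HTSeq, UMI-tools, DESeq2 1.28.1 and FastQC 0.11.8, and the build was mm10. Annotation, counting mode, strand setting and removal of duplicates are not given in the sources used here. The deposited signal values are gene counts that the authors divided by 1 size factor per library. Divided by a library's lowest nonzero value, 100% of values came out whole (tolerance 0.001), so whole reads were recovered. These are 5370765 to 15883473 per library. A value can rest on few reads, which is stated beside only some of the low values. The smallest chi-square per degree of freedom between 2 libraries of a group was 24.6 in KO and 3.15 in Het, so no library was counted as a copy.

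Genes averaging at least 10 were tested on log2(value + 1) by limma 3.58.1 (R 4.3.3), with trend and robust eBayes and genotype as the only term, two-sided, adjusted over all genes (Benjamini-Hochberg). Fold changes are on this scale and understate low genes. Under the deposited scaling limma's spread was shared by genes of like level, with a median of 128988 degrees of freedom a gene. Its p-values and intervals thus treat the spread as all but known, though each group had 4 libraries. With TMM scaling the median was 17.3 degrees of freedom a gene. On whole reads, edgeR 4.0.16 (quasi-likelihood) called 157 genes higher and 8 lower, and DESeq2 1.42.0 called 211 and 3, against limma's 198 and 5. Scripts were tested on simulated counts. Other alternatives were the pseudocount, the filter, eBayes settings, the replicate number as a block, leaving out each library and subsets of the KO libraries or of both sexes. Ligands, lists and alternatives were chosen with earlier results of these data known. Genes named are the 6 ligands, in each list up to 4 called genes or else the 2 of smallest p, the top marker of a cell type, neighbours of Cd274 and the genes most like each ligand. Others (Cd80, Cd86, Cd276, Irf1, Ifng, Cmtm6, Qpctl, Pdcd1, Havcr2, Sirpa, Lgals1, Lgals3) were named for their role, after their values were seen. Cd40 was named because its groups did not overlap under the deposited scaling. The values of 1 further gene that this rule selects are not reported here. Coordinates are from GENCODE M21 (mm10), where 42961 of 44343 symbols matched, and start regions are from RefSeq (GRCm38.p6).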

Additional observations from a re-analysis of the deposited data

Results flagged for a closer look

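In 4 of 46 groups of 4 libraries checked (23 genes), 1 library stood apart from the other 3, with a gap above Dixon's 95% limit. That limit is passed about 1 time in 20 by independent, normally spread values. The values here were not logged, and the genes share libraries and were in part picked by small p. The 4 are therefore a description and not set against that rate. KO 1 was the high library each time. It held 816 normalized counts of Lgals9, against 133 to 245 in the other KO libraries, and 228 of Icam1, against 43.0 to 51.8. It held 2622 of H2-T23, against 440 to 773, and 83.4 of Lag3, against 16.5 to 23.3. KO 1 also had the most reads (15883473).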

How the results depend on the processing

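Cd274 and Lgals9 kept their direction and call in all 29 and 28 alternatives that gave them a value (log2 fold changes 2.03 to 3.71 and 1.99 to 3.20, highest adjusted p 0.0205 and 0.0193). Leaving out each library gave Cd274 2.28 to 3.39 under the deposited scaling and 2.19 to 3.02 with TMM scaling, and Lgals9 2.09 to 2.96 and 1.99 to 2.705. It gave Cd47 0.20 to 0.95 and 0.10 to 0.57, Icam1 0.71 to 1.498 and 0.61 to 1.36, Vcam1 0.24 to 0.58 and −0.032 to 0.48, and Pvr −0.56 to 0.21 and −0.66 to −0.15. Vcam1 was at −0.032 without Het 3 under TMM scaling, and Pvr at 0.03 without KO 3 and 0.21 without KO 4. DESeq2 gave Pvr 0.10. With KO 1 and KO 2 only, Cd47 was at 1.47, Icam1 at 1.89 and Pvr at 0.72. With libraries of both sexes only (KO 1, KO 2 and Het 2 to 4) they were at 1.35, 1.99 and 0.69. With KO 3 and KO 4 only, Cd47 was at −0.34 and Pvr at −1.09. The exact permutation p of Icam1 was 0.0857 with TMM scaling. The cause of these changes was not tested.

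Ligands called higher were 1 under the mean-200 filter with TMM factors (Lgals9, Icam1, Vcam1 and Pvr fall under that filter), 5 with KO 1 and KO 2 only, 4 with both sexes only and 2 to 3 (deposited) or 2 (TMM) leaving out each library. Ligands called lower were 1 with KO 3 and KO 4 only. Of the other list genes, those higher numbered 2 with a pseudocount of 8, 6 under the mean-200 filter with TMM factors, 3 with DESeq2, 31 with KO 1 and KO 2 only, 27 with both sexes only and 1 to 4 leaving out each library. Those lower numbered 1, 12, 7 and 7 under the mean-200 filter with TMM factors, KO 1 and KO 2 only, KO 3 and KO 4 only and both sexes only. All genes called higher numbered 404 under the mean-200 filter with TMM factors, 127 without trend or robust settings, 9809 with KO 1 and KO 2 only and 8538 with both sexes only. Those called lower numbered 2 with a mean of at least 50, 8 with TMM scaling and with edgeR, 284 under the mean-200 filter with TMM factors, 1 without trend or robust settings, 3 with DESeq2, 3182 with KO 1 and KO 2 only, 1587 with KO 3 and KO 4 only and 2049 with both sexes only. Leaving out each library gave 105 to 338 higher and 1 to 46 lower under the deposited scaling, and 94 to 300 and 3 to 75 with TMM scaling (higher: 94, 222, 300 and 100 without KO 1 to KO 4 in turn and 100, 102, 129 and 112 without Het 1 to Het 4; lower: 6, 75, 22 and 3, and 3, 3, 8 and 7).

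Same-numbered libraries of the groups had deviations from their group means that correlated at 0.22, −0.05, 0.13 and 0.28. The Het library with the highest correlation had the same number for KO 1, KO 3 and KO 4, and was Het 3 for KO 2. As the correlations were low, the numbers were not taken to pair the libraries in the main test. With the replicate block 182 genes were called higher and 5 lower, and Cd274 (2.87, adjusted p = 0.000117) and Lgals9 (2.62, adjusted p = 7.40e-07) were still called. Vcam1 and Icam1 rest on as few as 17 and 23 reads a library, which limits their precision.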

Other observations

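Other genes of the lists passed the test in other settings. Under the mean-200 filter with TMM factors, where 6.03% of 6697 genes were called higher and 4.24% lower, Cd200, the ligand of an inhibitory receptor of myeloid cells, was called higher (log2 fold change 0.51, limma adjusted p = 0.0340). So were Lgals8 (0.52, adjusted p = 0.0361), Tnfsf10 (0.72, adjusted p = 0.0486) and Stat2 (1.11, adjusted p = 0.0311). Nectin1, of the nectin family of adhesion molecules, was called lower there (−0.65, adjusted p = 0.0343). With all 8 libraries, limma called none of these 5 genes under the deposited scaling at a mean of at least 10, 50 or with no filter. Some fits on fewer libraries did call them. Stat2 passed without KO 3 (1.86, adjusted p = 0.0248), where 338 genes were called higher. Cd200, Lgals8, Tnfsf10 and Stat2 passed with KO 1 and KO 2 only, where 47.4% of all genes were called higher. Nectin1 was lower with KO 3 and KO 4 only (−1.38, adjusted p = 0.000346), where 7.03% were called lower.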
